A study of Homo sapiens with 6 samples.

Results

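The genes examined here encode the intermediate filaments of neurons and their precursors, NEFL, NEFM, NEFH, INA, VIM and NES, together with TUBB3, STMN2, GAP43 and UCHL1, which serve as markers of neurons. They were listed by name, 10 of the 20033 protein-coding genes of GENCODE 44 on hg38, and for each of them the ChIP-seq peaks that overlap the gene body plus 10 kb on either side were collected. The cells are labelled HepG2, a cell line of human liver cancer origin. Control cells were left untreated and the others received sodium benzoate (SB, 10 mM for 24 h). The chromatin was digested with micrococcal nuclease and precipitated with a pan antibody against acetylated lysine (Kac) or benzoylated lysine (Kbz), neither of which distinguishes the histone or the residue. Of the 6 groups, each a single library, 3 have a peak list, namely control Kac with 70326 peaks, SB Kac with 63282 and SB Kbz with 24308. According to the labels, no peaks were found for Kbz in control cells, and the input libraries were not used here.

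Neurofilaments are heteropolymers of the light, medium and heavy chains NEFL, NEFM and NEFH with alpha-internexin (INA), and they set the calibre of axons. Vimentin (VIM) and nestin (NES) form the filaments of mesenchymal and progenitor cells and give way to neurofilaments as neurons mature. Lysine acetylation of histones marks active promoters and enhancers, and benzoylation is an acylation of the same residues that is fed by benzoyl-CoA. None of the neurofilament genes is typical of the liver.

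With 1 library per list, no difference between the lists can be set against replicate error, so every value below is a description. Sequencing depth is unknown, because a peak list holds no read totals. The fold of a peak, its read density over the background as deposited, is given as its percentile inside its own list.

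The label of the cells was compared with marker genes. Of 20 genes of liver products, the transcription start site (TSS) lay under a control Kac peak in 3, under an SB Kac peak in 1 and under a Kbz peak in 0, where all protein-coding genes gave shares of 59.1%, 60.4% and 45.8%. ALB, the gene of serum albumin, had no peak in its window in any of the lists, although 15 of the 20 had one in their window in some list. By list, 14 of the 20 had control Kac in the window, 14 SB Kac and 9 Kbz. All protein-coding genes gave window shares of 84.5%, 83.1% and 75.2%, so these counts were lower. The 3 with control Kac over the TSS were APOC3, VTN and F2, and F2 was the one with SB Kac there. Of 10 transcription factor genes of the kidney lineage, 7 had control Kac, 8 SB Kac and 6 Kbz over the TSS, which with so few genes is not far from the same shares and says little about the cells. The 4 of these with the highest Kbz rank were SIX2, EMX2, WT1 and LHX1, at percentiles 83.7, 71.8, 48.9 and 48.7, and SALL1 had Kac over its TSS in the SB list only. Most defining products of liver cells thus had no peak at their start in cells labelled HepG2, and the identity of the cells was not tested further.

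Within the gene windows, 8 of the 10 genes had a control Kac peak, 9 an SB Kac peak and 8 an SB Kbz peak. Among all protein-coding genes these shares were 84.5%, 83.1% and 75.2%, so the presence of a peak in the window was close to the background. Their median gene length was 11608 bp, and that of all protein-coding genes 27471 bp. NEFL, NEFH, INA, VIM, NES, TUBB3, GAP43 and UCHL1 had peaks of all 3 lists. NEFM had an SB Kac peak alone, and STMN2 had none. Together the windows contained 21 peaks of the control Kac list, 20 of SB Kac and 12 of Kbz.

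**Figure D1:**
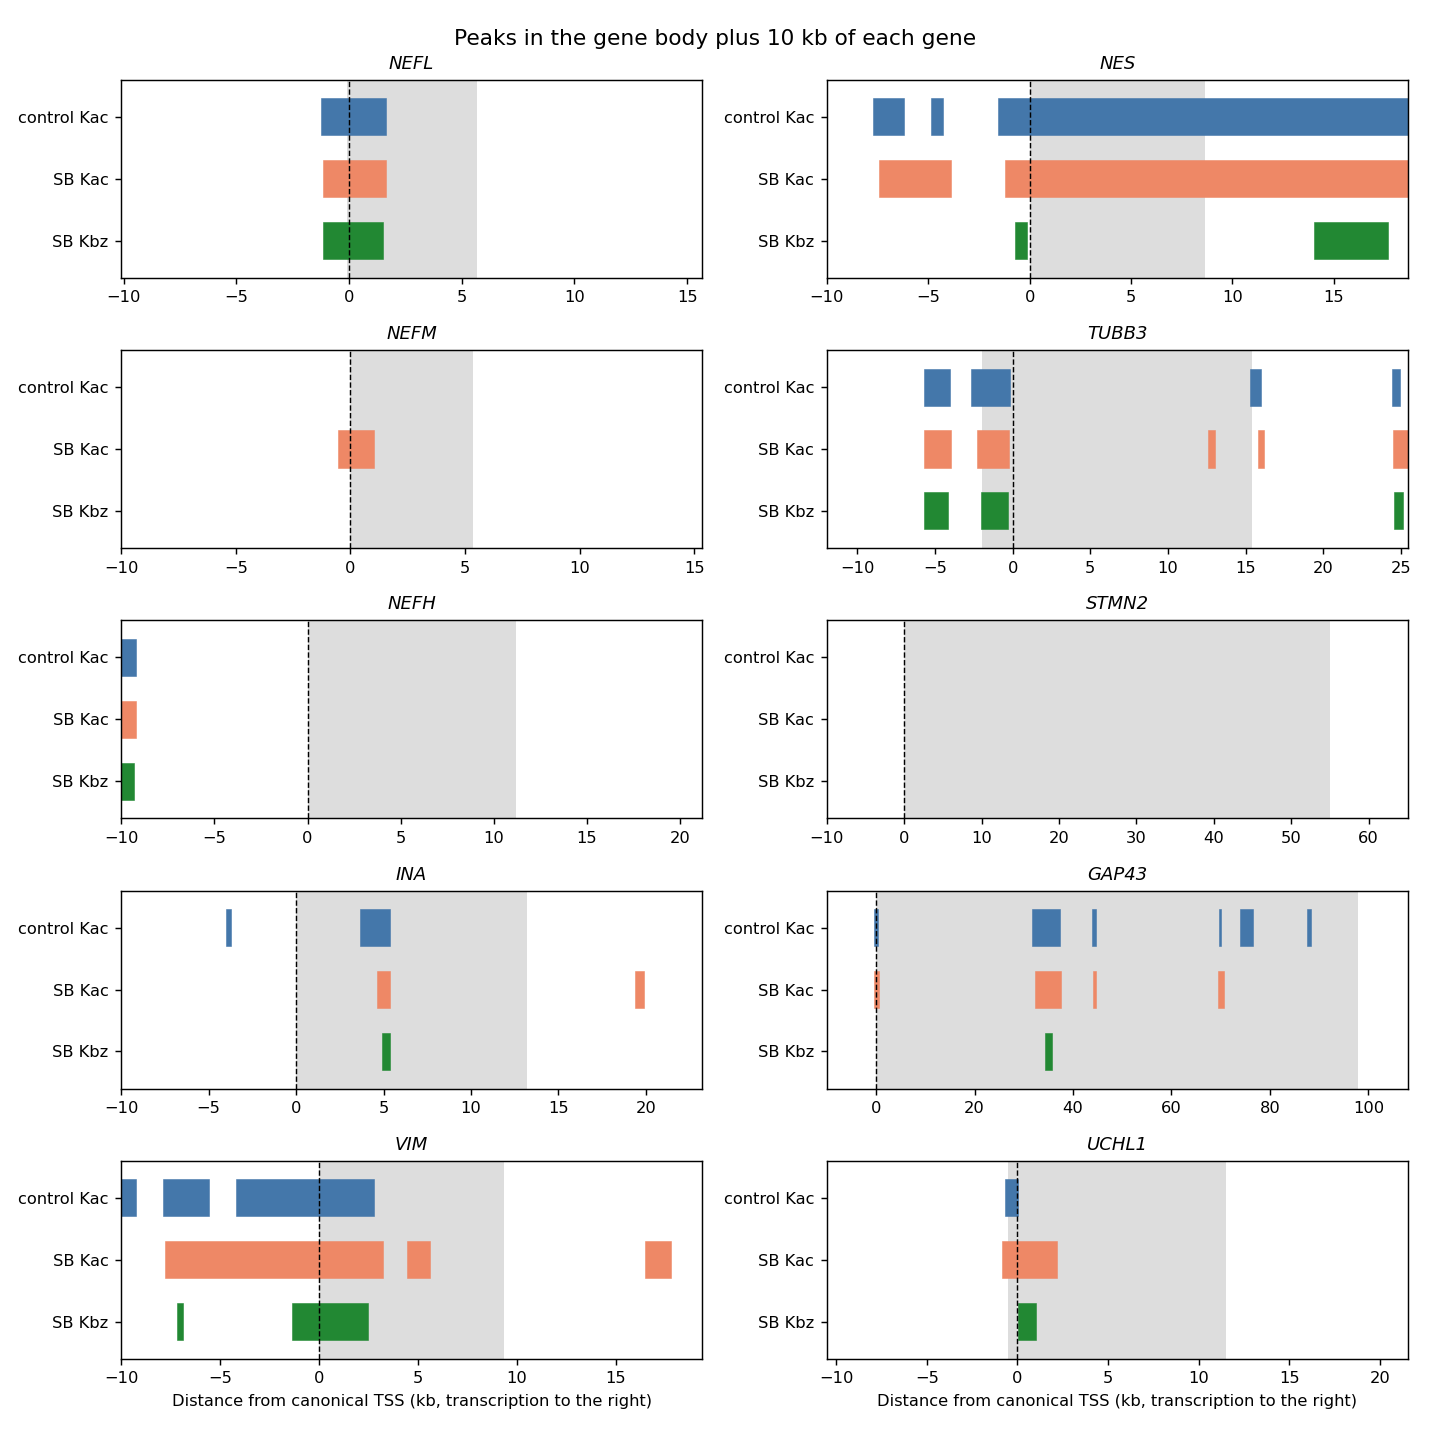
Peaks of the control Kac, SB Kac and SB Kbz lists around each of the 10 genes, as distance in kb from the canonical TSS (dashed line) with transcription to the right. The gene body is grey, the axis ends 10 kb beyond it, and peaks that reach further end at the frame. NES is covered over 78.1% of its window by control Kac and STMN2 is empty.

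At the TSS the picture was narrower. The canonical TSS, that of the transcript Ensembl takes as representative, lay under control Kac in 5 genes, under SB Kac in 6 and under Kbz in 2, against 59.1%, 60.4% and 45.8% of all protein-coding genes. NEFL and VIM were covered in all 3 lists, a pattern found in 44.8% of protein-coding genes. NES, GAP43 and UCHL1 had Kac in both conditions without Kbz, found in 10.9%. NEFM had SB Kac only, found in 3.88%. The TSSs of NEFH, INA, TUBB3 and STMN2 were under no peak, as in 36.2%. Of the 6 genes with SB Kac over the TSS, 2 had Kbz there, whereas among all protein-coding genes with SB Kac over the TSS this was 75.4%.

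The Kbz count depended on which start was taken. Kbz peaks began 8 bp downstream of the TSS in UCHL1, ended 127 bp upstream of it in NES and ended 321 bp upstream in TUBB3. When any annotated TSS of a gene counted, control Kac covered 6 genes, SB Kac 7 and Kbz 4, against 66.5%, 66.8% and 52.9% of protein-coding genes. The Kbz genes were then NEFL, VIM, TUBB3 and UCHL1. Within 3 kb of the canonical TSS, 6 genes had control Kac, 7 SB Kac and 5 Kbz, against 72.8%, 71.9% and 60.3%. The genes with Kbz in that range were NEFL, VIM, NES, TUBB3 and UCHL1.

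**Figure D2:**
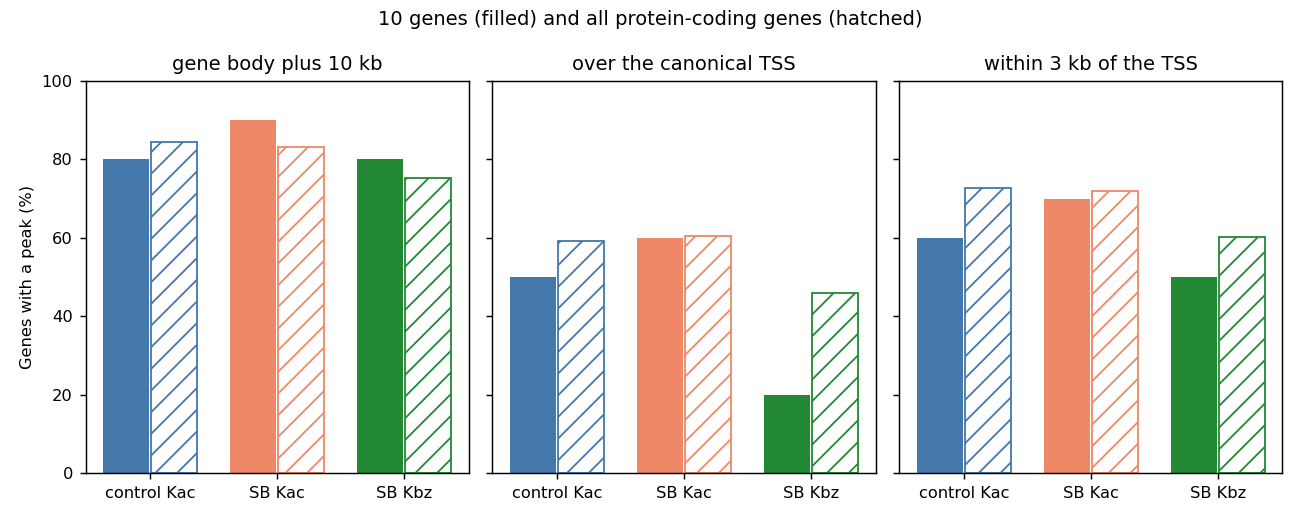
Share of genes with a peak (percent) in the gene body plus 10 kb, over the canonical TSS and within 3 kb of it, for the 10 genes (filled bars) and all 20033 protein-coding genes (hatched bars), 1 library per list. At the TSS, Kbz reached 2 of the 10 genes against 45.8% of all.

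Among the neurofilament genes, NEFL was the one with peaks over its start in all lists. NEFL (ENSG00000277586.4, chromosome 8, 24950955 to 24956721, minus strand) had a control Kac peak of 2924 bp from 24954952 to 24957875, an SB Kac peak of 2802 bp from 24954972 to 24957773 and a Kbz peak of 2627 bp from 24955124 to 24957750. They coincided closely, with 95.8% of the Kac bases common to both conditions and 93.8% of the SB Kac bases under Kbz. Each covered the TSS and exon 1, with 1044 bp of coding sequence, and also the start of the antisense-oriented lncRNA gene ENSG00000272157, 671 bp downstream of the TSS. The folds were 3.58, 3.68 and 4.07, at percentiles 68.4, 72.1 and 54.0.

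NEFM (ENSG00000104722.14, chromosome 8, 24913758 to 24919098, plus strand), the neighbour of NEFL, had a single SB Kac peak of 1600 bp from 24913207 to 24914806, which covered the TSS and 1013 bp of the coding sequence of exon 1. The peak also covered the start of the lncRNA gene ENSG00000272163, 956 bp downstream of the TSS. It was weak, with a fold of 2.74 at percentile 33.4 and a −log10 q, averaged over the peak, of 1.90. A value of 2 corresponds to the stated false discovery rate of 0.01, although such a mean is not the cutoff of the calls. No other gene of the 10 had a TSS call in one Kac list only. The nearest control Kac peak was that of NEFL, 41191 bp from the TSS of NEFM, and the nearest Kbz peak was at 41363 bp.

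NEFH and INA had no peak at their starts. The window of NEFH (ENSG00000100285.10, chromosome 22, 29480218 to 29491390, plus strand) held peaks of the 3 lists at its upstream margin only. The control Kac peak ended 9207 bp before the TSS, the SB Kac peak 9209 bp and the Kbz peak 9294 bp, inside the body of the lncRNA gene RFPL1S. Their ranks differed, at percentiles 84.8, 67.7 and 16.4. With a margin of 5 kb in place of 10 kb NEFH would have held no peak.

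INA (ENSG00000148798.11, chromosome 10, 103277138 to 103290346, plus strand) had peaks in its first intron. Control Kac extended from 103280771 to 103282486, SB Kac from 103281759 to 103282505 and Kbz from 103282062 to 103282485, at 3633, 4621 and 4924 bp downstream of the TSS. The peaks became shorter in this order, at 1716, 747 and 424 bp, and stood at percentiles 77.3, 80.8 and 33.3. A control Kac peak of 290 bp upstream and an SB Kac peak of 524 bp beyond the gene had no counterpart in another list.

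The genes of progenitor filaments carried the broadest acetylation. In VIM (ENSG00000026025.16, chromosome 10, 17228241 to 17237593, plus strand) a control Kac peak of 6963 bp, an SB Kac peak of 10996 bp and a Kbz peak of 3827 bp covered the TSS and exons 1 to 3. Their folds were 4.73, 5.07 and 4.87, at percentiles 90.7, 89.9 and 73.1. The SB Kac peak joined a region that was split into 2 peaks in control cells, and it overlapped both Kbz peaks of the window. The Kbz peak reached from position -1356 to position 2470 relative to the TSS, in bp. A short Kbz peak of 280 bp, 6884 bp upstream, stood at percentile 3.1. The peaks over the TSS also covered the start of the antisense gene VIM-AS1, 1777 bp downstream. Of the VIM window, control Kac covered 34.2%, SB Kac covered 46.0% and Kbz covered 14.0%.

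NES (ENSG00000132688.11, chromosome 1, 156668763 to 156677407, minus strand) lay entirely under a single Kac peak in both conditions, of 22787 bp in control cells and 21512 bp after SB, with 90.4% of the Kac bases of the window in common. The folds were 4.98 and 4.15, at percentiles 93.2 and 79.9. The body of the neighbouring gene BCAN was also touched by these peaks. Kbz was found inside this domain, on both sides of the gene. A Kbz peak of 599 bp ended just upstream of the TSS, at percentile 32.7, and a peak of 3629 bp, from 156659742 to 156663370, lay 14037 bp downstream of the TSS, beyond the end of the gene, at percentile 78.5. The latter covered the start of the lncRNA gene BCAN-AS2. The gene body itself was free of Kbz peaks, and 18.1% of the SB Kac bases in the window were under Kbz, the second lowest share among the 8 genes with Kbz, above 17.7% in GAP43.

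**Figure D3:**
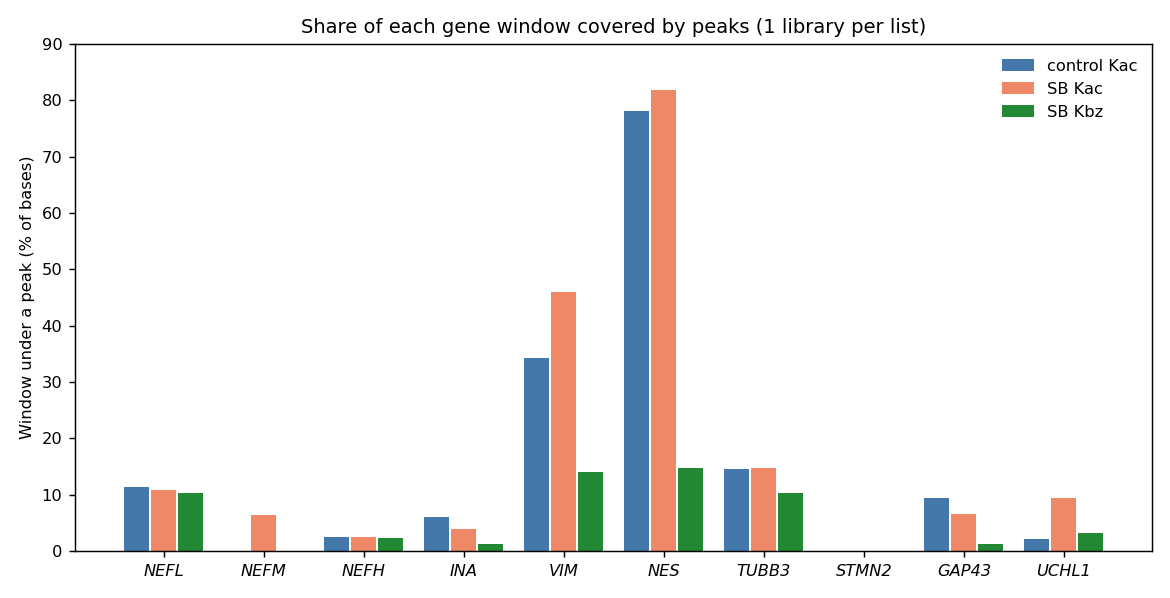
Bases of each gene window (gene body plus 10 kb) under a peak, in percent of the window, for the control Kac, SB Kac and SB Kbz lists with 1 library each. NES and VIM stand above the other 8 genes in both Kac lists, and no Kbz value exceeds 14.8%.

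TUBB3, the neuronal class III beta-tubulin, and STMN2, a regulator of microtubule growth, differed in their peaks. TUBB3 (ENSG00000258947.8, chromosome 16, 89921392 to 89938761, plus strand) had 4 peaks of control Kac in its window, 5 of SB Kac and 3 of Kbz. Its canonical TSS at 89923342 was just outside the peaks, while 3 of its 11 annotated starts lay under a peak of each list, in a control Kac peak of 2521 bp, an SB Kac peak of 2035 bp and a Kbz peak of 1710 bp. These stood at percentiles 96.4, 81.3 and 62.5. Each also covered the start of the lncRNA gene ENSG00000259006, at position -680 relative to the canonical TSS, in bp. The strongest Kbz peak of the 10 windows, at percentile 94.5 and with a −log10 q of 15.1, lay 4137 bp upstream of the canonical TSS, from 89917617 to 89919205. It covered the canonical TSSs of MC1R, the melanocortin 1 receptor gene, and of the coding gene ENSG00000198211. The latter is on the same strand as TUBB3, and its body overlaps that of TUBB3. At the other end of the window the SB Kac peak covered the TSS of DEF8.

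The window of STMN2 (ENSG00000104435.14, chromosome 8, 79611117 to 79666158, plus strand) was 75042 bp long and held 0 peaks of any list. Within 50 kb of the gene there was 1 control Kac peak and none of the other lists. The nearest control Kac peak was 89117 bp from its TSS, the nearest SB Kac peak 148886 bp and the nearest Kbz peak 153703 bp. Since depth is unknown, this means that no peak was detected, not that the marks were absent.

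GAP43, a protein of the growth cone, was the longest of the genes (ENSG00000172020.13, chromosome 3, 115623510 to 115721490, plus strand) and had Kac peaks along its body. Its TSS was covered by 833 bp of control Kac and 942 bp of SB Kac, with folds of 5.09 and 3.75 at percentiles 94.1 and 73.6, and had no Kbz peak within 3 kb. The strongest region was inside the first intron, where control Kac spanned 5603 bp, SB Kac 5182 bp and Kbz 1370 bp, from 115657836 to 115659205. There the percentiles were 95, 94.5 and 87.9. The Kbz peak began 34326 bp downstream of the GAP43 start and covered the TSS of the lncRNA gene ENSG00000241596. Control Kac had 6 peaks in the window and SB Kac 4. The control peaks of 2706 and 717 bp further downstream had no SB Kac counterpart.

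UCHL1, a ubiquitin C-terminal hydrolase that is abundant in neurons (ENSG00000154277.13, chromosome 4, 41256413 to 41268455, plus strand), had 1 peak of each list. Control Kac spanned 694 bp from 41256258 to 41256951, and SB Kac 3037 bp from 41256083 to 41259119. Kbz covered 1008 bp from 41256936 to 41257943, which included part of exons 1 to 3. The Kac folds were 3.42 and 3.31, at percentiles 63.1 and 63.3, and the Kbz peak at 13.2 with a −log10 q of 1.76. The Kac peaks also covered the start of the divergent lncRNA gene UCHL1-DT, and the Kbz peak did not. Control Kac and Kbz shared 16 bp, although 1008 of 1008 Kbz bases were inside the SB Kac peak.

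**Figure D4:**
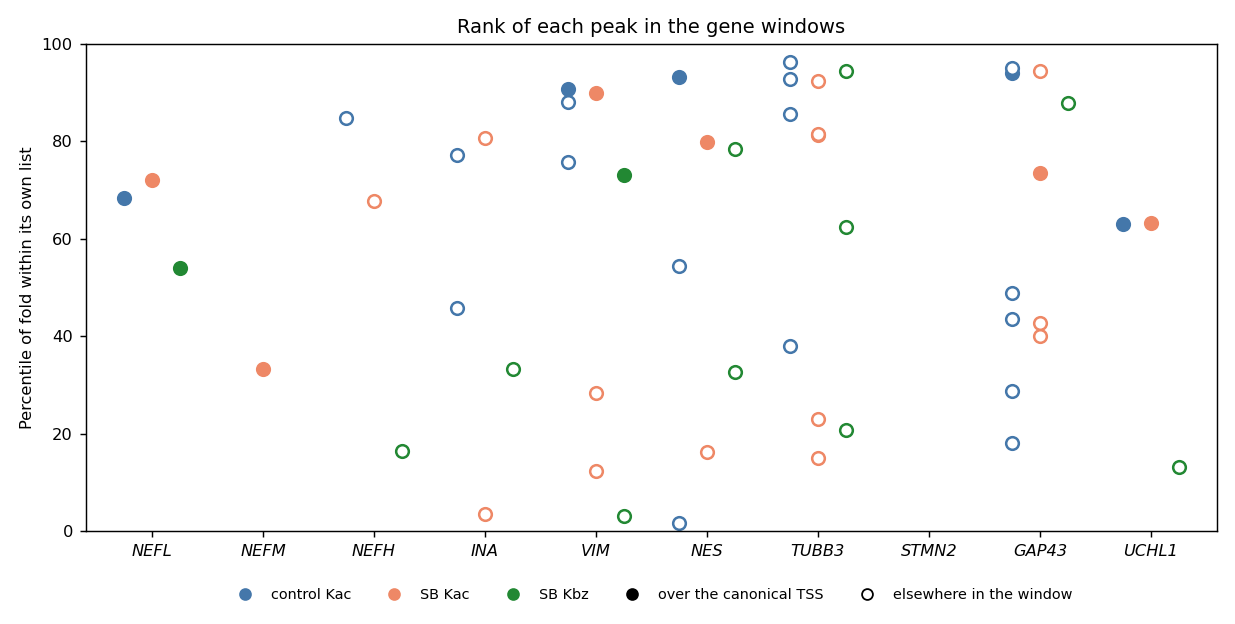
Fold of each peak in the gene windows as the percentile within its own list (0 to 100), by gene, with filled points for peaks over the canonical TSS and open points for others. The highest Kbz point is that of TUBB3 at 94.5, and the lowest that of VIM at 3.1.

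The rank of Kac over the TSS was then compared between the conditions, for the 5 genes with a call in both. It changed by 3.7 percentile points in NEFL, -0.8 in VIM, -13.2 in NES, -20.5 in GAP43 and 0.2 in UCHL1, as SB minus control. Over the 11159 protein-coding genes with both, the median was 2.6, with 90% of genes between -12.3 and 21.2. GAP43 and NES were thus low in this distribution, with 1.91% and 4.46% of genes below them. They started at control percentiles 94.1 and 93.2, which left little room to rise and much to fall. The comparison genes were not matched for starting rank, so these shares cannot be read as particular to GAP43 and NES. A rank in a list is no level, and without replicates these shifts cannot be told apart from variation between libraries.

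All 12 Kbz peaks of the windows overlapped a Kac peak of each condition, against 93.7% of all Kbz peaks for SB Kac and 93.3% for control Kac. Of the SB Kac peaks, 10 of 20 overlapped Kbz, against 33.8% in the full list. Those with Kbz had a median length of 2588 bp and a median percentile of 81.0, and those without had 1012 bp and 25.7. In the full SB Kac list the corresponding medians were 2402 bp and 82.7, and 891 bp and 34.0. Of the control Kac peaks, 18 of 21 overlapped SB Kac, against 64.7% of the full list. Of the SB Kac peaks, 15 of 20 overlapped control Kac, against 72.5%. The 5 SB Kac peaks without control Kac were in the windows of NEFM, INA, VIM (2) and TUBB3, at percentiles 3.6 to 33.4. The 3 control Kac peaks without SB Kac were in INA and GAP43, at percentiles 18.1 to 45.8. None of these 8 peaks overlapped Kbz. In the full lists, 33.8% of SB Kac peaks and 30.3% of control Kac peaks did. The share among Kac peaks without a counterpart in the other condition was not computed. The lack of Kbz in these 8 peaks therefore cannot be read as particular to these genes.

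The base composition of the peaks was read from hg38. SB Kac peaks with Kbz held a median of 3.55 CpG per 100 bp and those without held 1.19, beside 3.07 and 1.17 in the full list. The groups overlapped, with ranges of 1.85 to 10.6 and 0.19 to 8.44. The highest value without Kbz was that of NEFM, whose peak stood at percentile 99.1 of CpG density in the list. Kbz peaks ranged from 0.24 CpG per 100 bp in the INA intron to 10.7 in UCHL1.

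The middle 300 bases of the intronic Kbz peak of GAP43 are shown because this region, far from the start of the gene, is dense in CpG. They lie at chr3:115658371-115658670 on the plus strand of hg38, include 31 CpG, printed in capitals, and are 69.0% G and C. They contain the TSS of the lncRNA gene ENSG00000241596, at 115658533. The whole peak is less dense, with 4.82 CpG per 100 bp, at percentile 65.9 of the Kbz list, and 53.5% G and C.
GAP43 intron: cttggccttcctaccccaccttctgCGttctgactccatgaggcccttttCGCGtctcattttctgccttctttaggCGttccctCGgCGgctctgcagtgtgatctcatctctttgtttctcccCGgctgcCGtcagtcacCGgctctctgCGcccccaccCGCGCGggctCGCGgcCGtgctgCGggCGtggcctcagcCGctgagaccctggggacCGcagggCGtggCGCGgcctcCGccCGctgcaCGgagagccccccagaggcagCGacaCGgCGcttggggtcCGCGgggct

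Promoter sequences, from 250 bp before to 50 bp after the RefSeq start (GRCh38.p14), were matched for 6 of the genes, INA, VIM, NES, TUBB3, GAP43 and UCHL1. NEFL, NEFM, NEFH and STMN2 were not matched. The 6 promoters held 7 to 35 CpG with a median of 12, beside 22 for 15345 protein-coding promoters. VIM and TUBB3, which lay under all 3 lists over their 300 bases, had 10 and 9. The RefSeq start of TUBB3 is not the canonical TSS used above, and its promoter begins at position -1667 relative to that TSS. GAP43, with Kac over its 300 bases and 0 bases of Kbz, had 7, and INA, with 0 bases under any list, had 35, at percentile 82.9. Kbz was thus not ordered by CpG number among these promoters. Across the 15345 genes with a matched promoter, Kbz was present over the TSS in 59.1% of those with SB Kac and at most 14 CpG. Among those with SB Kac and 15 to 28 CpG it was present in 85.4%, and with 29 or more in 74.9%. CpG was counted in the RefSeq promoter, which can lie apart from the canonical TSS.

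The promoters of VIM, with Kbz, GAP43, with Kac only, and INA, with no peak, are given to show this contrast. They were searched on both strands for the GC box GGGCGG, the CCAAT box CCAAT, the TATA sequence TATAAA and the cyclic AMP element TGACGTCA, which do not overlap each other here, and matches are in capitals. VIM lies at chr10:17227991-17228290, GAP43 at chr3:115623260-115623559 and INA at chr10:103276888-103277187, each on the plus strand.
VIM: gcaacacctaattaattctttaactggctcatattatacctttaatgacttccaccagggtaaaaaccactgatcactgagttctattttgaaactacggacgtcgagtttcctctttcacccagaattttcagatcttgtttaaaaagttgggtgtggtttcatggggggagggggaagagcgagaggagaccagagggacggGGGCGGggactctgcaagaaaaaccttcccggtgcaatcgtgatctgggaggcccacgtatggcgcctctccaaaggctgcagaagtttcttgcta
GAP43: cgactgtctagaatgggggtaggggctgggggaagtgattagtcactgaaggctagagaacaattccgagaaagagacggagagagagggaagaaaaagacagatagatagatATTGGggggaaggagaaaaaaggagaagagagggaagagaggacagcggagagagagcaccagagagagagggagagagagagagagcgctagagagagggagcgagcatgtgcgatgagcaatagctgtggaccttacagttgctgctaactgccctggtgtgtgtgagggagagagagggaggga
INA: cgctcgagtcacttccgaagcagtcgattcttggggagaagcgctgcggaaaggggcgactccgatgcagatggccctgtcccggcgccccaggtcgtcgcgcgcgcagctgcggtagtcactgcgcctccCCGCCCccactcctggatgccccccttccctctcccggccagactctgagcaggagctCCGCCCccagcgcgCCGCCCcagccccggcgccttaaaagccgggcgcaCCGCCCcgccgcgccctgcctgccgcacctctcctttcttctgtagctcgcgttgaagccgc

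The GC box occurred in 4 of the 6 promoters (INA, VIM, NES and UCHL1), against 59.2% of the 15345 promoters. The CCAAT box was found in 1, GAP43, against 36.6%, and the TATA sequence in 1, UCHL1, against 9.63%. The cyclic AMP element was found in 0 of them, against 2.64%. A match is a run of letters in the window and no more.

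In NES and UCHL1 the edge of the Kbz peak fell inside the promoter. The bases under Kbz, 124 of 300 in NES and 42 of 300 in UCHL1, are printed in capitals. They show that Kbz ended on the upstream side in NES and began on the downstream side in UCHL1. NES lies at chr1:156677358-156677657 on the minus strand and UCHL1 at chr4:41256678-41256977 on the plus strand, each read 5′ to 3′ along the gene. The edges of broad peaks follow the windows of the peak caller and are not exact to the base.
NES: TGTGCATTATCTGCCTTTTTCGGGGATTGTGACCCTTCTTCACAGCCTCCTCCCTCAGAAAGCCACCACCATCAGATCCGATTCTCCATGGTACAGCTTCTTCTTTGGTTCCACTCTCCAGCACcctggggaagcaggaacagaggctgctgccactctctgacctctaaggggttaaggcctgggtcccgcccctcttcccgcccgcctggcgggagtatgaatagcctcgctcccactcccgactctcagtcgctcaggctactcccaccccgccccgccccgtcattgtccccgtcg
UCHL1: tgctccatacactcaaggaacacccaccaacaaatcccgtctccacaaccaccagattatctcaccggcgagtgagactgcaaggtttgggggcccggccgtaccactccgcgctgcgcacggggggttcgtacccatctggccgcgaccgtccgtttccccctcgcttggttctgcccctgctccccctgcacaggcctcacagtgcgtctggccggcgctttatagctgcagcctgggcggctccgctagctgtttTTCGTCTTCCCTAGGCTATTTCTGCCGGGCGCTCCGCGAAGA

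Related genes were examined in the same way. Of 11 other intermediate filament genes, 8 had control Kac, 8 SB Kac and 5 Kbz over the TSS. For all protein-coding genes the shares were 59.1%, 60.4% and 45.8%, so the list was near the background. Kbz stood at percentile 75.6 for BFSP1, a lens filament protein, 73.4 for the keratin gene KRT8, 60.9 for the lamin gene LMNB1 and 55.5 for PRPH, the peripheral neurofilament-like protein peripherin. GFAP, the astrocyte filament, had Kac in both conditions without Kbz over its TSS, and DES, the muscle filament, had no peak there.

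Of 19 genes of tubulins and microtubule-associated proteins, 13 had control Kac, 14 SB Kac and 6 Kbz over the TSS. Beside the shares of 59.1%, 60.4% and 45.8%, the Kac counts were slightly above the background and the Kbz count was below it. The highest Kbz ranks belonged to the widely expressed tubulins TUBA1C (96.9), TUBA1B (94.4) and TUBB (90.1), followed by TUBB4A (78.6). TUBB2A and MAPT, the gene of tau, had SB Kac over the TSS without control Kac, at percentiles 66.0 and 98.2, and DPYSL2 had control Kac without SB Kac, at 81.1. DCX, the doublecortin gene of migrating neurons, had 0 peaks in its window.

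Of 6 genes of stathmins and growth proteins related in use to GAP43, 3 had control Kac, 4 SB Kac and 2 Kbz over the TSS, again near 59.1%, 60.4% and 45.8% for a list this small. Kbz was at percentile 90.6 for STMN1, a widely expressed relative of STMN2, and at 88.6 for MARCKS. MARCKSL1 had SB Kac only, at 67.4. STMN4 had no peak in its window, like STMN2. The other ubiquitin C-terminal hydrolase genes UCHL5, UCHL3 and BAP1 were covered over the TSS in all 3 lists, like 44.8% of protein-coding genes, with Kbz at 87.2, 56.7 and 55.6.

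Of 14 other neuron marker genes, 3 had control Kac, 3 SB Kac and 1 Kbz over the TSS, and 11 had no peak there in any list. The 3 with Kac were ENO2, ELAVL2 and SYT1, and ELAVL2 had Kbz, at percentile 25.8. These shares are below the 59.1%, 60.4% and 45.8% of all protein-coding genes. In the windows, 9 of these 14 genes had control Kac, 10 SB Kac and 7 Kbz, and 10 had a peak of some list. All protein-coding genes gave window shares of 84.5%, 83.1% and 75.2% for the 3 lists, so these counts were lower too.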

How the data were processed

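The members and gene lists were chosen with earlier results of these data known. Per the labels and the methods of the study, the authors mapped single reads of 50 bp to hg38 with Bowtie2 (version 2.2.6), kept unique reads, removed duplicates with SAMtools (version 0.1.19) and called broad peaks per library with MACS2 (version 2.1.1) at a false discovery rate of 0.01. The deposited columns hold a score (not used), the fold as a linear ratio, and −log10 p and −log10 q, averaged over each peak. The lowest −log10 q of a peak was 1.31, so the deposited lists hold bases beyond that rate. As this is a mean over a peak, the cutoff of the calls cannot be read from it. The setting of the broad calls and their background are not given in the sources used here.

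Peaks on 24 chromosomes were kept and 3 control Kac peaks elsewhere left out. No peak passed a chromosome end. Genes came from GENCODE 44, promoters from RefSeq, and an overlap was at least 1 bp. Folds were ranked within each list. Neighbouring genes are named where a peak covered their TSS. From each related list the text names up to 4 genes with the highest Kbz rank over the TSS and those whose TSS call differed between the Kac lists. A few others were named after their values were seen (ALB, F2, GFAP, DES, DCX, STMN4, ENO2 and SYT1). A list of liver transcription factor genes is not reported here. Stricter thresholds, other windows, starts and overlap rules were tried as alternatives. Simulated peaks with known overlaps served to test the scripts. Python 3.11.15 with numpy 2.4.6, pandas 2.3.3 and matplotlib 3.10.9 was used.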

Additional observations from a re-analysis of the deposited data

How the results depend on the processing

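Each of the 16 counts and shares was recomputed with one choice changed, 78 times in all, and 59 stayed within 1.5 times of the count or inside the Wilson 95% interval of the share. The other 19 follow. At a −log10 q of at least 5, where fewer peaks pass, the window count fell to 5 genes for SB Kac and 4 for Kbz, the TSS count to 3 for both Kac lists and 1 for Kbz, and the count within 3 kb to 4 for SB Kac and 2 for Kbz. All SB Kac peaks left (100%) then overlapped control Kac, and Kbz covered 12125 bases of the windows in place of 18319. With the 15000 strongest peaks per list, each list had 5 genes in the window, the TSS count was 3 in each Kac list, and 4 genes had SB Kac within 3 kb. With 24308 peaks per list, control Kac was over 3 TSSs. For these shorter lists the shares of all protein-coding genes were not computed, so the falls cannot be read as particular to these genes. With any annotated TSS, Kbz was over 4. When 50% of a peak had to be covered, SB Kac overlapped control Kac in 50% and Kbz in 25.0%. The NEFM peak was lost with a minimum −log10 q of 2, and the Kac lists then covered the same 5 TSSs. No paired analysis was possible because no group holds more than 1 library, which also precludes omitting replicates.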
